A study of Rattus norvegicus with 8 samples.

Results

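Tubulins, stathmins and microtubule-associated proteins form and regulate the microtubules of a neuron, and 42 genes of these families were listed by symbol. Of the 42, 38 had at least 1 probe that carried only their own gene symbol, with 78 probes among them, out of 14801 named genes measured in all. Tuba1a, Tuba1b, Tubb2a and Clasp1 had no such probe and were not analysed here. Of the 38 genes, 13 had 1 probe and 25 had several, and every one of them had a value on all 8 arrays.

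The samples were large and small retinal ganglion cells of the rat. Ganglion cells had been labelled from their axon targets with the tracer 4DI-10ASP, taken from fresh retinas in the presence of Actinomycin D, which blocks transcription, and sorted by fluorescence into large and small cells. Both fractions went through the same steps, and the sources used here do not give strain, sex or age. RNA of each fraction was amplified in 2 rounds and hybridised to 2-colour arrays, large cells listed with Cy5 and small cells with Cy3, on 8 arrays named here by their title numbers. Amplification can change the proportions of transcripts, and fewer cells of a type and less RNA per cell cannot be told apart in such pools.

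Microtubules are hollow polymers of alpha and beta tubulin dimers, and gamma tubulin seeds them. They carry axonal transport and hold the shape of axons and dendrites. Retinal ganglion cells, whose axons run from the eye to the brain, rely on them for transport over that distance. Stathmins bind free tubulin dimers and promote disassembly, structural microtubule-associated proteins bind along the lattice, plus-end proteins track growing tips, and severing enzymes cut the polymer.

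Each value is a log2 ratio of both channels on 1 array, and values are means ± SD over 8 arrays unless stated. No label says which channel is the numerator. Should it be that of large cells, a value above 0 means higher in large cells. According to the labels, large cells carried 1 and the same dye throughout, although the design text describes dye swapping. The arrays fell into sets of 4 that correlated within and opposed each other. Arrays 39, 41, 43 and 70 are called set 1, and arrays 40, 42, 69 and 71 set 2. Pearson correlations over all probes ran from 0.22 to 0.68 for the 12 pairs within sets and from -0.32 to 0.16 for the 16 pairs between sets, 15 of them negative. The lowest was -0.32 with zeros and extreme values set to missing, and -0.29 with the values as deposited. Sets that opposed each other, with no label for the numerator, leave the direction unsettled. Each member's mean therefore stands beside the values or means of both sets and, for the genes described in full, beside the value with the signs of set 2 turned, which is (set 1 - set 2)/2. Paired set means give set 1 and then set 2. The sets were found from these same arrays, so their difference is a description without a test. The labels mention 2 technical subreplicates for each biological replicate without saying which arrays they are, and p-values over 8 arrays measure only the spread between arrays, part of which may be technical.

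As a check of the cells, ratios show no level, so the presence of ganglion cell RNA could not be tested. The mean of 16 measured ganglion cell markers of 18 listed ran from -0.31 to 0.01 over the arrays, with 2 called markers, Slc17a6 and Thy1, both on the negative side, against 2.19% of all genes (limma adjusted p under 0.05). Calls were also made for 2 of 14 rod, 2 of 9 bipolar, 1 of 8 cone and 1 of 13 Mueller glia and astrocyte markers, on the positive side in each case. None was called among 11 amacrine, 13 microglia, 8 endothelium and pericyte and 6 oligodendrocyte markers. The mean of 9 bipolar markers ran from -0.12 to 0.21 and was positive on 5 of 8 arrays. That of 13 Mueller glia and astrocyte markers ran from -0.28 to 0.15 and was positive on 4 of 8. That of 8 cone markers ran from 0.07 to 0.39. The mean of 14 rod markers ran from 0.06 to 0.74, from 0.36 to 0.74 in set 1 and from 0.06 to 0.33 in set 2. The mean of 13 microglia markers was 0.90 on array 39 and 0.85 on array 40, -0.39 on array 41 and -0.33 on array 42, and between 0.09 and 0.29 elsewhere.

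Of the 38 microtubule genes, 1 passed the test of the mean against 0 (limma, adjusted p under 0.05 over all genes), against 2.19% of all genes tested. That gene was Map7, on the positive side, where 0.568% of all genes were called, and none of the 38 was called on the negative side, where 1.62% of all genes were. At an unadjusted p under 0.05 there were 6 of 38 (15.8%), against 13.1% of all genes. The median of the 38 means was -0.03, against -0.01 over all genes, with 15 genes above 0 and 23 below. The median size of the mean, regardless of sign, was 0.10 in these genes and 0.08 over all genes. With the signs of set 2 turned, the medians were 0.02 in these genes and -0.004 over all genes. Only Stmn3 and Stmn4 had a mean of a size above 0.5.

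**Figure D1:**
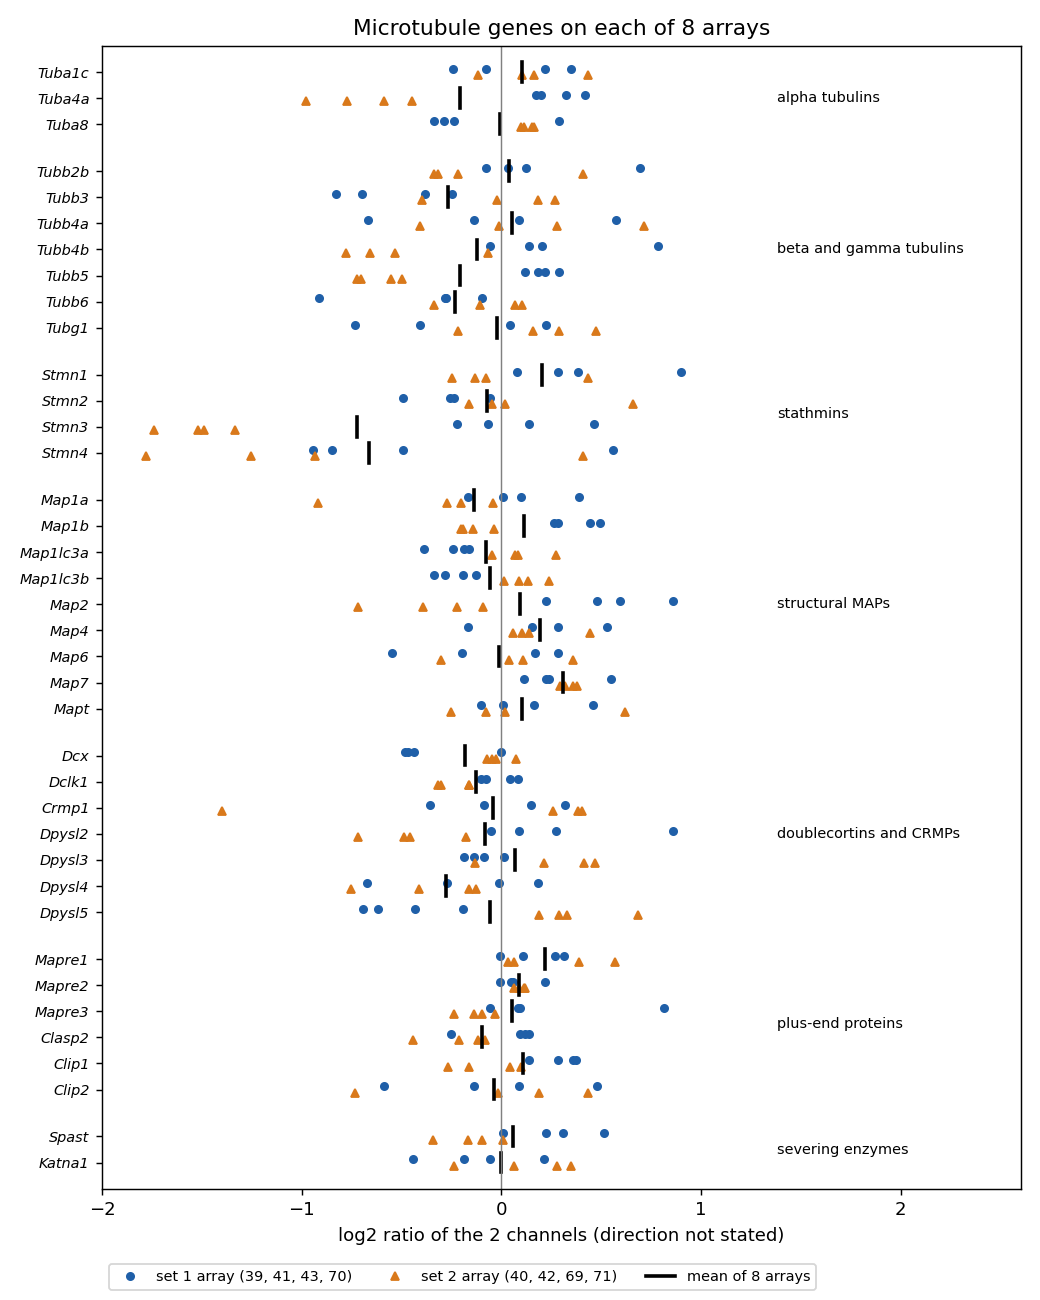
Log2 ratio (x axis) of each of 38 microtubule genes (rows, grouped by role) on 8 arrays; circles are set 1 arrays, triangles set 2 arrays and the bar is the mean of 8. Map7 lies above 0 on every array, while Stmn3, Tuba4a, Tubb5, Map2 and Dpysl5 separate by set.

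The promoters of the 3 genes that were called in the fit over 8 arrays or in that with set as a covariate are given for identification, from 250 bases before to 50 after the RefSeq start in the GRCr8 build. They are Map7 at chr1:16729877-16730176 on the + strand, Stmn3 at chr3:188802445-188802744 on the - strand and Tubb5 at chr20:2917327-2917626 on the + strand. Capitals mark the GC box, searched as GGGCGG and its reverse complement CCGCCC on either strand.
Map7: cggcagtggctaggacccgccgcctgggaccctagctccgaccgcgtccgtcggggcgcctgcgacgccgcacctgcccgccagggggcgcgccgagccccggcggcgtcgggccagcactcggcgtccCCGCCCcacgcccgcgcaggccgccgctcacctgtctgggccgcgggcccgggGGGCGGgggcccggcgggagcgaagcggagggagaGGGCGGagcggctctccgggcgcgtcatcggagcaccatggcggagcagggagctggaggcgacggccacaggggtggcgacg
Stmn3: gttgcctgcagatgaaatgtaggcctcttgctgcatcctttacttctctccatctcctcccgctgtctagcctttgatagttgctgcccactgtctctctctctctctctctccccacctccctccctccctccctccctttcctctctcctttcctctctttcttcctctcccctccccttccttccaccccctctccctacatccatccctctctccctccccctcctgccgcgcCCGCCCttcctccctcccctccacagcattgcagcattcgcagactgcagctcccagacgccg
Tubb5: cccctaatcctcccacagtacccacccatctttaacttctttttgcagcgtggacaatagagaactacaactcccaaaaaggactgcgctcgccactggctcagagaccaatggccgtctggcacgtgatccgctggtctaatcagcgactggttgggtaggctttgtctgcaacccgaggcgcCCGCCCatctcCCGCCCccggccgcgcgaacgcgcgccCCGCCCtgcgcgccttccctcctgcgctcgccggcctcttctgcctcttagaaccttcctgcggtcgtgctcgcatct
Map7 and Tubb5 held 3 GC boxes each and Stmn3 held 1. The Map7 window was 81.0% G and C, against 60.0% in Stmn3 and 62.3% in Tubb5. The letters TATAAA, or their reverse complement, were in none of these 3 windows. Of the 32 microtubule genes with a promoter in the table, 21 held a GC box (65.6%), against 41.8% of 21851 protein-coding promoters of the same length. These matches describe the sequence and do not show a binding site.

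Map7, the gene of ensconsin, which binds along microtubules and recruits kinesin-1, was the single called member. Its gene value was 0.22, 0.24, 0.11 and 0.55 on arrays 39, 41, 43 and 70 of set 1, and 0.29, 0.36, 0.38 and 0.32 on arrays 40, 42, 69 and 71 of set 2. All 8 arrays lay above 0 and the sets overlapped. The mean was 0.31 ± 0.13 (1.24-fold, limma adjusted p = 0.0344), with set means of 0.28 and 0.34, and -0.03 with the signs of set 2 turned. No other of the 38 genes kept 1 sign throughout the 8 arrays, so that this share was 2.63%, against 4.44% of all genes. Both of its probes had a positive mean, at 0.41 and 0.21. The probe at 0.41 was positive on 8 of 8 arrays and passed the test over single probes (limma adjusted p = 0.0335, a call made for 1.75% of all probes). The other was positive on 7 of 8 and did not (limma adjusted p = 0.184). The call rested on all arrays but 39. Leaving out any other single array moved the limma adjusted p past the threshold, up to 0.105 without array 70, and with neighbouring title numbers averaged it was 0.122.

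Stathmins held the 2 largest means of the 38 genes. Neither passed the test over all genes, and the 2 genes varied in unlike ways. Stmn3, which encodes a membrane-associated neuronal stathmin also known as SCLIP, had 1 probe. Its values were 0.46, -0.22, 0.14 and -0.07 in set 1 (arrays 39, 41, 43 and 70) and -1.49, -1.74, -1.52 and -1.33 in set 2 (arrays 40, 42, 69 and 71). Set 1 lay around 0 and set 2 lay far below it, with no overlap. The mean was -0.72 ± 0.88 (limma adjusted p = 0.244), with set means of 0.08 ± 0.30 and -1.52 ± 0.17 (n = 4 each). The difference of 1.60 between the sets (3.03-fold) was as large in size as, or larger than, that of 99.3% of all genes, and the largest of the 38. With the signs of set 2 turned the mean was 0.80. The fit with set as a covariate called Stmn3 on the negative side (limma adjusted p = 0.0024), in a fit that called 6.27% of all genes. Because the set split was read off these arrays, that p-value is not independent of the split.

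Stmn4, which encodes the neural stathmin RB3, also had 1 probe and varied between pairs of neighbouring arrays more than within them. It stood at -0.94 on array 39 and -1.78 on array 40, at 0.56 on array 41 and 0.41 on array 42, at -0.49 on array 43 and -0.93 on array 69, and at -0.85 on array 70 and -1.25 on array 71. Only arrays 41 and 42 lay above 0, and they belong to different sets. Within each of the 4 pairs of neighbours the set 1 array was the higher. The mean was -0.66 ± 0.80 (limma adjusted p = 0.238), with set means of -0.43 and -0.89, and 0.23 with the signs of set 2 turned. Arrays 41 and 42 were also those lowest for microglia markers, and arrays 39 and 40 those highest. The part of other cells in the spread of Stmn4 was not tested.

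The other stathmins lay nearer to 0. Stmn1, the ubiquitous stathmin of dividing and developing cells, had a mean of 0.20 ± 0.37 (set means 0.41 and -0.01), highest at 0.90 on array 41 and lowest at -0.25 on array 71. Its 2 probes were close, at 0.24 and 0.16. Stmn2, the axonal growth protein SCG10, had a mean of -0.07 ± 0.34 (set means -0.26 and 0.12). Its 3 probes disagreed. One averaged -0.39 and lay below 0 on all arrays but 41, another averaged -0.08, and the highest averaged 0.25 with a value of 2.77 on array 40.

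**Figure D2:**
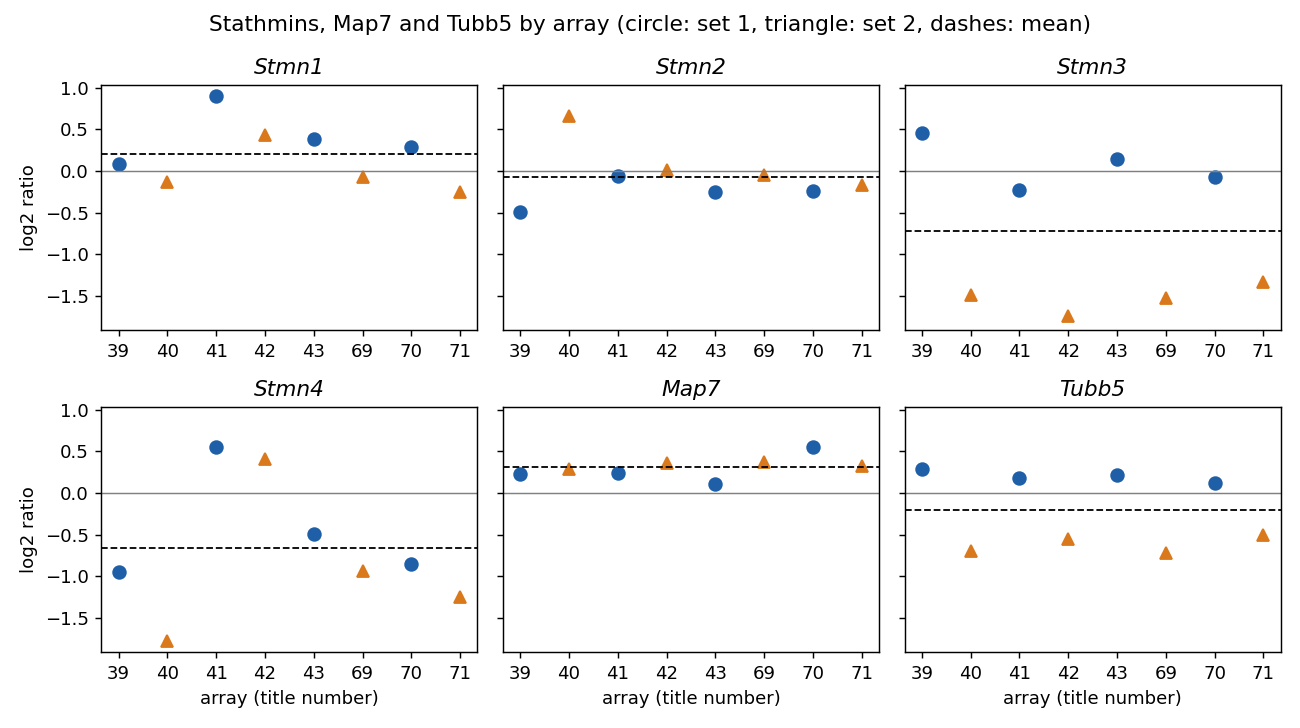
Log2 ratio (y axis) of the 4 stathmin genes, Map7 and Tubb5 on each array (x axis, title number); circles are set 1, triangles set 2, dashes the mean of 8 arrays. Stmn3 and Tubb5 alternate with the set, Stmn4 lies above 0 on arrays 41 and 42 alone, and Map7 stays between 0.11 and 0.55.

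Alpha and beta tubulins, the subunits of the polymer, had no called member over 8 arrays among the 10 measured tubulin genes, gamma tubulin included. At an unadjusted p under 0.05 in limma there were 0 of these 10, against 13.1% of all genes. Tubulin genes are closely alike in sequence, and probe sequences were not used here, so the signal of one gene on the probe of another cannot be separated. Tuba4a, an alpha tubulin of mature neurons, read 0.42, 0.20, 0.17 and 0.32 on the set 1 arrays and -0.45, -0.98, -0.77 and -0.59 on those of set 2, in the array order used above. Set 1 was wholly above 0 and set 2 wholly below. Its mean was -0.21 ± 0.55 (set means 0.28 and -0.70, limma adjusted p = 0.728), and 0.49 with the signs of set 2 turned. Both of its probes showed the split, with differences between the sets of 1.26 and 0.69.

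Tubb5, a beta tubulin made in most cell types, had 1 probe. Its values were 0.29, 0.18, 0.22 and 0.12 in set 1 and -0.70, -0.55, -0.72 and -0.50 in set 2. Spread within a set was small, with SDs of 0.07 and 0.11. The mean was -0.21 ± 0.45 (limma adjusted p = 0.647), and 0.41 with the signs of set 2 turned. The fit with set as a covariate, which called 6.27% of all genes, called Tubb5 at the same mean of -0.21 (limma adjusted p = 0.0291). As for Stmn3, that p-value is not independent of the split. Tubb4b, a broadly expressed beta tubulin abundant in cilia, also had 1 probe. It read 0.79, 0.14, 0.20 and -0.06 in set 1 and -0.07, -0.54, -0.66 and -0.78 in set 2. The sets touched without overlapping, and the mean was -0.12 ± 0.52, or 0.39 with set 2 turned.

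Tubb3, the neuronal beta tubulin used to stain ganglion cells, leaned the other way. Its values, from 1 probe, were -0.38, -0.83, -0.25 and -0.70 in set 1 and 0.18, -0.40, 0.27 and -0.02 in set 2. Set 1 was below 0 throughout, and set 2 lay on both sides. The mean was -0.27 ± 0.39 (limma adjusted p = 0.416), with set means of -0.54 and 0.01. With the signs of set 2 turned it was also -0.27, while turning set 1 instead would make it positive. Which set, if either, should be turned is not known, so the side of Tubb3 stays unsettled. Tubb6, a beta tubulin of many tissues, had a mean of -0.23 ± 0.32 with values of -0.92, -0.10, -0.28 and -0.28 in set 1 and -0.34, 0.07, 0.10 and -0.11 in set 2. The lowest value came from array 39, where its probes differed, at -1.78 and -0.05. With the signs of set 2 turned, its mean was -0.16. Of the remaining tubulins, Tuba1c averaged 0.10 ± 0.23 (set means 0.06 and 0.15) and Tuba8 -0.01 ± 0.24 (set means -0.14 and 0.13). Tubb2b, a beta tubulin of developing neurons, averaged 0.04 ± 0.36 (set means 0.19 and -0.12), and Tubb4a, of mature neurons and oligodendrocytes, 0.05 ± 0.47 (set means -0.04 and 0.14). The nucleating Tubg1 averaged -0.02 ± 0.40 (set means -0.22 and 0.18). Tubb4a read -0.67 on array 39 and -0.41 on array 40, but 0.57 on array 41 and 0.72 on array 42. Tubg1 read -0.73 on array 39 and -0.22 on array 40, 0.23 on array 41 and 0.48 on array 42, and -0.41 on array 70 and 0.16 on array 71. Both genes were lowest on array 39 and highest on array 42, and the set 2 array was the higher of every neighbouring pair.

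Structural microtubule-associated proteins, 9 genes with Map7 among them, had 5 positive and 4 negative means and a median of 0.09. Map2, the protein that marks dendrites and cell bodies, read 0.86, 0.22, 0.48 and 0.59 in set 1 and -0.09, -0.72, -0.39 and -0.22 in set 2. The sets lay on opposite sides of 0. Its mean was 0.09 ± 0.54 (limma adjusted p = 0.931), and 0.45 with the signs of set 2 turned. Mapt, the axonal protein tau, averaged 0.10 ± 0.30 with set means of 0.13 and 0.08. Its highest values, 0.46 and 0.62, came from arrays 39 and 40, the arrays highest for microglia markers, and the part of other cells in them was not tested. One of its 2 probes carried both values, at 0.83 and 1.41, and the other read 0.09 and -0.17 there. Map4, the form found in most non-neuronal cells, averaged 0.19 ± 0.22 (set means 0.20 and 0.19) and was positive on 7 of 8 arrays (limma adjusted p = 0.35).

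Map1a, of mature axons and dendrites, averaged -0.14 ± 0.38 (set means 0.08 and -0.36), and Map1b, of growing axons, 0.11 ± 0.29. Map1b lay at 0.37 ± 0.11 in set 1 and -0.14 ± 0.07 in set 2 (n = 4 each), on opposite sides of 0. Map1lc3a and Map1lc3b, best known as the LC3 proteins of autophagosomes, ran opposite to Map1b in their gene values. Their means were -0.08 ± 0.21 and -0.06 ± 0.21, and their set means were -0.25 and 0.10 for Map1lc3a, and -0.24 and 0.12 for Map1lc3b. The 2 probes of Map1lc3a disagreed, with differences between the sets of 0.35 and -1.03. All 3 probes of Map1lc3b had a negative difference, and those of Map1b ran from -0.24 to 2.26. Map6, which protects microtubules from cold, lay at -0.01 ± 0.31 (set means -0.07 and 0.05).

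Doublecortins and collapsin response mediator proteins, which bind tubulin or microtubules in migrating and growing neurons, had 1 positive and 6 negative means among 7 genes, with no call. At an unadjusted p under 0.05 in limma there was 1 of 7, against 13.1% of all genes. That was Dpysl4, encoding CRMP3. It read 0.18, -0.67, -0.01 and -0.27 in set 1 and -0.13, -0.75, -0.16 and -0.41 in set 2. It was below 0 on 7 of 8 arrays and the sets overlapped. The mean was -0.28 ± 0.32 (limma adjusted p = 0.272), and 0.09 with the signs of set 2 turned.

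In their gene values, Dpysl2 and Dpysl5 split by set in opposite directions. Dpysl2, encoding CRMP2, which carries tubulin dimers and promotes axon growth, read 0.86, -0.05, 0.28 and 0.09 in set 1 and -0.18, -0.72, -0.46 and -0.49 in set 2. Dpysl5, encoding CRMP5, read -0.62, -0.44, -0.19 and -0.69 in set 1 and 0.33, 0.29, 0.69 and 0.19 in set 2. Set 1 was above set 2 for Dpysl2 and below it for Dpysl5, without overlap. Their means over 8 arrays were -0.08 ± 0.50 and -0.06 ± 0.50, and with the signs of set 2 turned they were 0.38 and -0.43. One of the 2 probes of Dpysl2 carried its split, with differences between the sets of 1.69 and -0.18, and Dpysl5 had 1 probe. Dcx, the doublecortin of young neurons, averaged -0.18 ± 0.24 (set means -0.35 and -0.02), and its relative Dclk1 -0.13 ± 0.14 over 6 probes (set means -0.01 and -0.24). Crmp1 averaged -0.04 ± 0.61 (set means 0.005 and -0.09) and Dpysl3, encoding CRMP4, 0.07 ± 0.26 (set means -0.10 and 0.24).

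Plus-end proteins had 4 positive and 2 negative means among 6 genes and no call. At an unadjusted p under 0.05 in limma there was 1 of these 6, Mapre1, against 13.1% of all genes. Mapre1 encodes EB1, the protein that recruits other factors to growing ends. It read 0.27, 0.31, -0.01 and 0.11 in set 1 and 0.57, 0.39, 0.03 and 0.06 in set 2. It was above 0 on 7 of 8 arrays and the sets overlapped. The mean was 0.22 ± 0.20 (limma adjusted p = 0.234), and -0.05 with the signs of set 2 turned. Its relatives Mapre2 and Mapre3 averaged 0.09 ± 0.07 (set means 0.08 and 0.09) and 0.05 ± 0.33 (set means 0.23 and -0.13). Clip1, which links membranes to growing ends, averaged 0.11 ± 0.23 (set means 0.29 and -0.07), and Clip2 -0.04 ± 0.44 (set means -0.04 and -0.03). The end-stabilising Clasp2 averaged -0.10 ± 0.21 (set means 0.02 and -0.21). The severing enzymes lay at 0.06 ± 0.28 for Spast, the spastin gene (set means 0.26 and -0.15), and -0.003 ± 0.28 for Katna1, the katanin catalytic subunit (set means -0.12 and 0.11).

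Across the 38 genes the split between the sets was compared with that of all genes. The 4 values of 1 set lay wholly above those of the other for 13 of 38 genes (34.2%), against 34.9% of all genes. Set 1 was wholly above in 10 of the 38 genes, against 16.8% of all genes, and set 2 in 3 of the 38, against 18.1% of all genes. The sets lay on opposite sides of 0 for 6 of the 38 genes (15.8%), against 20.0% of all genes. The median size of the difference between the sets was 0.34 in these genes and 0.30 over all genes. Means of 2 marker lists of other cells did not overlap between the sets either, while those of the other marker lists did. The mean of 14 rod markers was higher in set 1, as given above, and that of 6 oligodendrocyte markers ran from -0.31 to -0.10 in set 1 and from 0.16 to 0.24 in set 2. Taken singly, 4 of 14 rod markers had set 1 wholly above, against 16.8% of all genes, and none had set 2 wholly above. Of 6 oligodendrocyte markers, 3 had set 2 wholly above, against 18.1% of all genes, and none had set 1 wholly above. The part of these cells in the split of the microtubule genes was not tested.

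**Figure D3:**
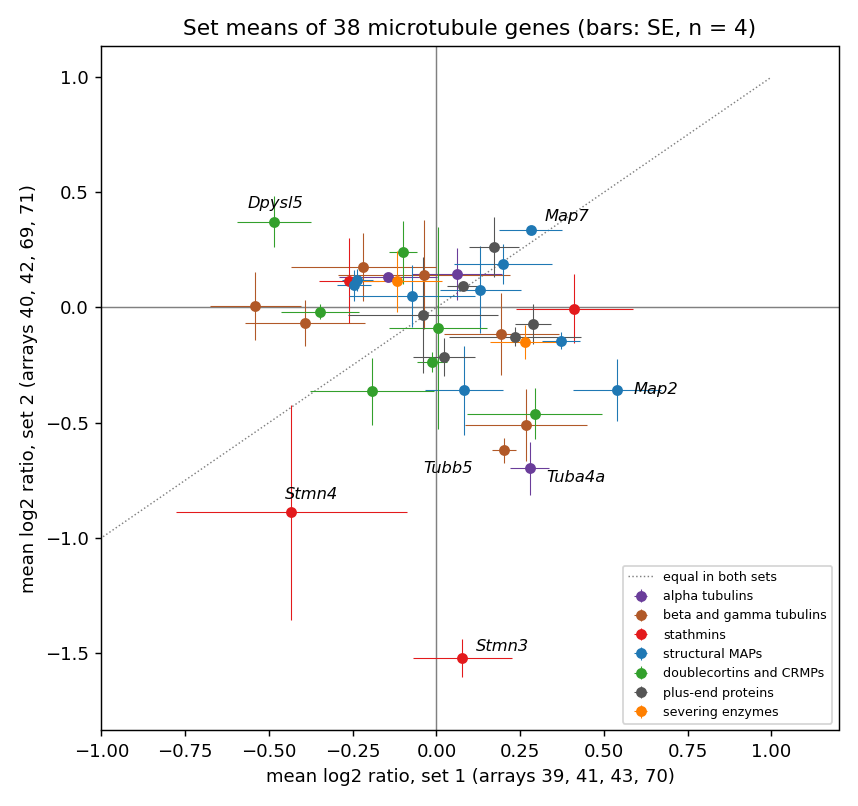
Mean log2 ratio in set 1 (x axis) against set 2 (y axis) for 38 microtubule genes, coloured by role, with SE over 4 arrays as bars; the dotted line marks equal values. Map7 lies near the line at 0.28 and 0.34, Stmn3 far below it at 0.08 and -1.52, and Dpysl5 above it at -0.48 and 0.37.

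Probes of the same gene differed widely in this split. Among the 25 genes with several probes, the difference between the sets was positive for one probe and negative for another in 17, and its range over the probes passed 1 on the log2 scale in 10. Map1b had 6 probes. One lay above 0 on every set 1 array and below 0 on every set 2 array, with a difference of 2.26 between the set means, while another was positive on 8 of 8 arrays, with a mean of 0.40 ± 0.24 and set means of 0.28 and 0.51 (limma adjusted p = 0.0595 over single probes). The 2 probes of Map2, assigned to the same transcript record, had differences between the sets of 1.82 and -0.03. Those of Dpysl2, also on 1 record, had 1.69 and -0.18. The gene values of Map1b, Map2 and Dpysl2 therefore average unlike probes.

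Probes also differed across the arrays as a whole. For 3182 transcript records with at least 2 probes, the difference between the sets of the first probe correlated with that of the second at r = 0.12, and the mean over 8 arrays at r = 0.35. These are correlations across genes, which are not independent, and both probes share the same RNA and arrays. For the 16 such records of microtubule genes, the median gap between both probes was 0.46 for the difference between the sets and 0.15 for the mean, against 0.45 and 0.14 over all such records.

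**Figure D4:**
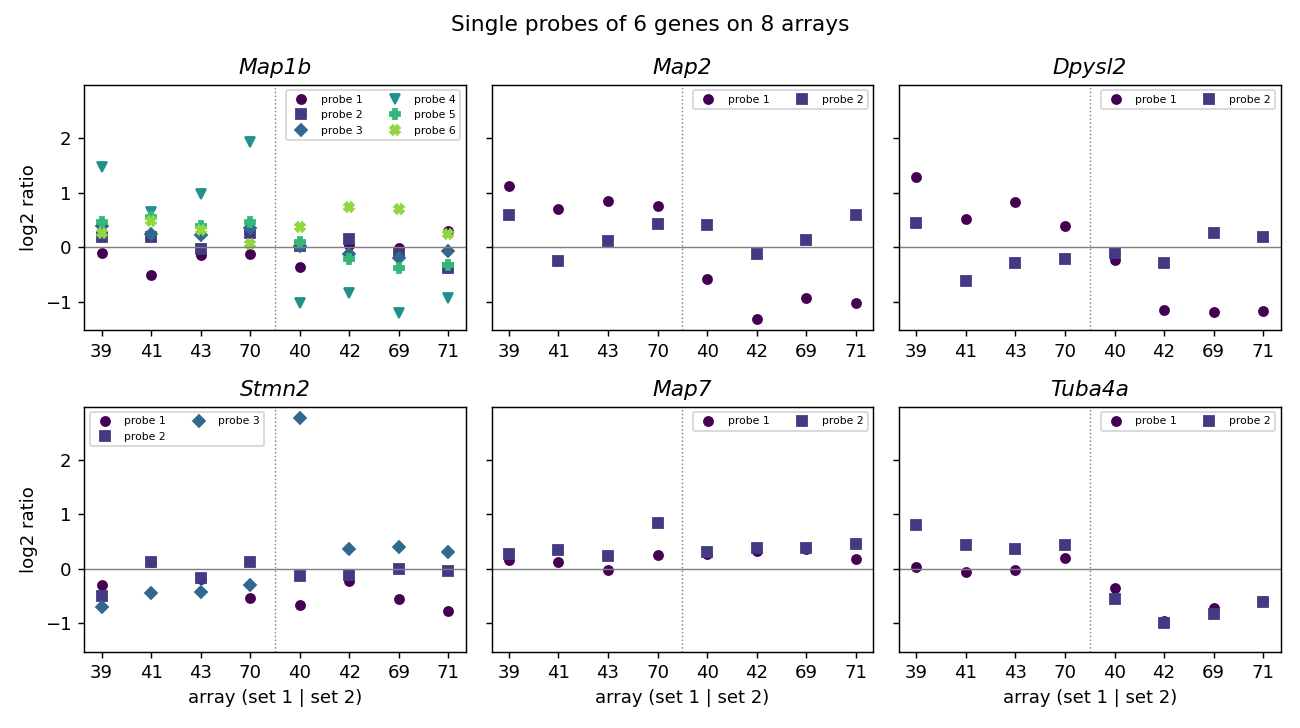
Log2 ratio (y axis) of every probe of 6 genes on the 4 arrays of set 1 (left of the dotted line) and of set 2 (right); each symbol is 1 probe. One probe each of Map1b, Map2, Dpysl2 and Tuba4a lies above 0 throughout set 1 and below 0 throughout set 2, and the Map7 probes do not separate by set.

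Apart from the sets, arrays with neighbouring title numbers resembled each other. After the mean of its own set was removed from each gene, the microtubule genes of arrays 39 and 40, 41 and 42, 43 and 69, and 70 and 71 correlated at 0.33 to 0.89 over 38 genes. The other 12 pairings of a set 1 with a set 2 array gave -0.66 to 0.29. Over all genes the ranges were 0.21 to 0.53 and -0.33 to 0.08. Removing set means itself lowers the correlations between the other pairings, and the labels do not give this pairing. With these neighbours averaged, limma called 0 of the 38 genes and 0 of all genes (0.0%). At an unadjusted p under 0.05 it gave 5 of the 38, against 13.0% of all genes.

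Other genes of the microtubule pathway had a median mean of 0.01 and a median size of 0.08. Of 121 listed genes outside the 42, 90 were measured and 2 were called, both on the positive side, against 0.568% of all genes in that direction. They were 1 of 24 measured further microtubule-associated and severing proteins and 1 of 15 kinases and phosphatases of tau and CRMPs. Map9, which encodes a microtubule-associated protein of the spindle and of cilia, read 0.60, 0.35, 0.16 and 0.09 in set 1 and 0.77, 0.46, 0.47 and 0.42 in set 2. All 8 values were above 0, with a mean of 0.42 ± 0.22 (set means 0.30 and 0.53, limma adjusted p = 0.0299). Gsk3b, a kinase that phosphorylates tau, MAP1B and CRMP2, read 0.18, 0.47, 0.39 and 0.40 in set 1 and 0.07, 0.54, 0.19 and 0.30 in set 2, again above 0 throughout. Its mean was 0.32 ± 0.16 (set means 0.36 and 0.28, limma adjusted p = 0.0447). With the signs of set 2 turned the means of Map9 and Gsk3b were -0.11 and 0.04. Leaving out single arrays moved the limma adjusted p to between 0.0469 and 0.0819 for Map9 and between 0.0376 and 0.138 for Gsk3b.

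The other 4 lists had no call among 17 measured genes of tubulin folding, 15 of tubulin modification, 15 of nucleation and minus ends and 4 further tubulins. At an unadjusted p under 0.05 in limma these lists held 0, 3, 1 and 0 genes, against 13.1% of all genes. Their largest means in size were those of Cct4, a subunit of the tubulin chaperonin, at 0.40 ± 0.93 (set means 0.61 and 0.18), Tpgs1, a subunit of a tubulin polyglutamylase, at -0.35 ± 0.40, Tubgcp2, of the gamma tubulin ring complex, at -0.28 ± 0.33 (set means -0.27 and -0.29), and Tuba3a at 0.16 ± 0.29 (set means -0.02 and 0.33). Tpgs1 averaged -0.70 in set 1 and 0.01 in set 2, and the fit with set as a covariate called it (limma adjusted p = 0.0067). That fit called 6.27% of all genes, and its p-value is not independent of the split.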

How the data were processed

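The deposited values are a log2 ratio per probe on 8 arrays, 41048 probes each. How the arrays were scanned, background-corrected and normalized is not stated in the sources used here. The log base was found from the deposited values. Of 88 distances between common values, 67 matched a log2 of a ratio of whole numbers up to 12 within 0.0006, against 16 for log10 and 0 for the natural log. On each array, 99.89% to 100% of values lay on a grid of thousandths shifted by 1 constant. Signal over background was not analysed, and the number of arrays limits the precision.

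Values of a size above 15 (73) or exactly 0 (574) were set to missing, and 30 were missing as deposited. Of the probes, 23374 had 1 gene symbol in the platform annotation, 48 several and 17626 none. Symbols were updated by gene ID through RefSeq (GRCr8, 1 changed). Probes of a gene were averaged, and a gene needed 6 arrays. Means were tested against 0 with limma 3.58.1 (R 4.3.3), with Benjamini-Hochberg adjustment over 14801 genes. In simulated data with the real spread of 14665 genes, it recovered 52% of changes of 0.5 and 93% of changes of 1, with 5 false calls. The simulated arrays were independent, without the opposed sets and the likeness of neighbouring arrays seen here. These rates therefore need not hold for the real arrays. Figures used matplotlib 3.10.9 under Python 3.11.15.

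The members and lists were chosen with earlier results of these data known. Values on every array were printed for members called over 8 arrays or with set as a covariate, and for the 8 largest in mean and the 8 largest in difference between the sets. Other lists contribute up to 3 called genes, or the largest. Alternatives were the kept extreme values, centring, scaling, probe medians, single probes, a complete-data filter, set as a covariate or turned, averaged neighbours and arrays left out.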

Additional observations from a re-analysis of the deposited data

Results flagged for a closer look

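In 4 of the 38 microtubule genes, 1 array stood far from the other 7 by Dixon's test at 95%. That test flags about 1 group in 20 by chance if values are independent and normal, while neighbouring arrays resembled each other here. The share of all genes flagged was not computed, so an excess in these genes cannot be read from the count. All 4 values came from arrays 39 and 40, which had the largest SDs over all genes, at 0.49 and 0.48. Mapre3 read 0.81 on array 39, against -0.24 to 0.09 on the other 7. Tubb6 read -0.92 on array 39, against -0.34 to 0.10 elsewhere. Stmn2 read 0.66 on array 40, against -0.49 to 0.02 elsewhere, and Crmp1 read -1.40 on array 40, against -0.36 to 0.40 elsewhere. In Stmn2 and Crmp1 a single probe carried the value, at 2.77 and -2.83 on array 40. Without that array their means were -0.18 and 0.15.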

How the results depend on the processing

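The count of 1 called microtubule gene was the same with extreme values kept, median centring, scaling, probe medians, values on all 8 arrays and single probes. It was 0 with neighbouring arrays averaged and 3 with set as a covariate, and ranged from 0 to 1 with single arrays left out. Over all genes 324 were called, 0 with neighbours averaged (at an unadjusted p under 0.05, 1929), 928 with set as a covariate, and from 134 to 330 with single arrays left out. Of the other pathway genes 2 were called, 0 with neighbours averaged, and from 0 to 2 with single arrays left out. Map7 turned to -0.027 with the signs of set 2 turned. The cause was not tested in any of these. The median of the 38 means ran from -0.06 to 0.02 with single arrays left out. Of 608 values of single genes under alternatives, 588 kept their side of the threshold or moved by less than 1 SD. The turn of set 2 moved 9 genes by more than that, and the sign changed in each of them: Tuba4a, Tubb5, Stmn3, Stmn4, Dclk1, Dpysl4, Mapre1, Mapre2 and Clasp2.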
